A study of Mus musculus with 12 samples.

Results

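The genes described here are the mitochondrial carriers that carry an Slc25a name. They were taken as all protein-coding genes whose name is Slc25a followed by a number, which gave 47 of the 41740 genes listed, or of 21849 protein-coding genes. Kidneys of mice with rhabdomyolysis-induced acute kidney injury (RIAKI, 6 libraries) and of sham controls (6 libraries) were profiled at 24 h. The mice were wild-type male C57BL/6NCrl, and their age is not given in the sources used here. Before the injection, every mouse went 19 h without drinking water. RIAKI mice then received glycerol at 50%, in a volume of 0.05 ml for each 10 g of body weight, into the muscle of a hind limb, which damages muscle fibres and releases their content into the blood, whereas sham controls received saline. Isoflurane anaesthesia and Rimadyl (carprofen, a painkiller, 5 mg/kg) were given in both groups. The libraries are of whole kidney lysate, so that all cell types of the organ were measured together, and a decrease in the number of cells of a type cannot be told apart from a decrease in RNA per cell. Labels number the samples in each group but name no animals, and p-values measure the spread between these samples.

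Most carriers of this family sit in the inner mitochondrial membrane. There they exchange nucleotides, phosphate, di- and tricarboxylates, amino acids, cofactors and iron between the cytosol and the matrix. Each is built from repeated pairs of membrane-spanning helices and is encoded in the nucleus. Those of the inner membrane reach it through dedicated import chaperones. Proximal tubule cells of the kidney are rich in mitochondria, since they drive reabsorption with ATP from oxidative phosphorylation.

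Exon reads were counted after removal of duplicates by unique molecular index (UMI), and amounted to 1579157 to 1911871 per RIAKI library and 1673329 to 2073959 per sham library. Mitochondrial rRNA took 34.1% to 58.9% of these reads in RIAKI and 36.6% to 52.7% in sham controls (exact permutation test, 2-sided p = 0.665). Proximal tubule markers, among them the phosphate transporter Slc34a1, were found in every library, and 12 of 12 fell in RIAKI, with a summed level of 625 to 899 CPM (counts scaled to a common library size) in RIAKI against 2549 to 3022 CPM in sham controls. Markers of the thick ascending limb summed to 130 to 252 CPM in RIAKI and 477 to 612 CPM in sham controls (4 of 5 fell), and those of the distal nephron and collecting duct to 188 to 324 CPM in RIAKI and 635 to 747 CPM in sham controls (8 of 11 fell). Leukocyte markers summed to 96.8 to 152 CPM in RIAKI and 91.8 to 157 CPM in sham controls, with 4 higher and 2 lower of 9 tested. The muscle genes Ckm, Acta1, Myh4 and Tnnt3 had no counts in any library. The whole list of 7 muscle genes summed to 1.03 to 3.12 CPM in RIAKI and 16.2 to 28.2 CPM in sham controls. Pvalb, also counted with the distal nephron markers, had 8 reads in RIAKI and 208 in sham controls. Mylpf had 16 reads in RIAKI and 35 in sham controls, and Myh1 had 0 and 1. What part these shifts have in the results on carriers was not tested.

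Of all results below, those on ATP-Mg/phosphate carriers and on pyrimidine nucleotide carriers showed related genes moving in opposite directions, and the promoters of 4 of these genes are therefore shown. The sequences are from RefSeq (GRCm38.p6), run 5′ to 3′ from 250 bases before to 50 bases after the annotated start, and carry capitals where a cAMP response element (TGACGTCA) or an E-box (CACGTG) was found. Slc25a24 (chr3:109122899-109123198, + strand) and Slc25a25 (chr2:32424017-32424316, − strand, 1 of 3 annotated starts) rose in RIAKI, as did Slc25a33 (chr4:149774218-149774517, − strand), whereas Slc25a36 (chr9:97110992-97111291, − strand) fell.
Slc25a24: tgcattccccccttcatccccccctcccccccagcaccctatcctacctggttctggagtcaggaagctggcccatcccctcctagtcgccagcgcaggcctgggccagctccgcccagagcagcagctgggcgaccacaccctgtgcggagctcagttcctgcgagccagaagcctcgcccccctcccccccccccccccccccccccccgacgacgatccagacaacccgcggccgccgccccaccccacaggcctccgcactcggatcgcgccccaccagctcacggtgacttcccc
Slc25a25: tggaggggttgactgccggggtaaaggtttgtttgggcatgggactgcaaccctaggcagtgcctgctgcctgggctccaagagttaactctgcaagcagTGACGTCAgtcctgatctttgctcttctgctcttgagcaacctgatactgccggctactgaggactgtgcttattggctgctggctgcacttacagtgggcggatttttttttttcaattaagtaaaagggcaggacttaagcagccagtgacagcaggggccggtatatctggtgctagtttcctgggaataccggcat
Slc25a33: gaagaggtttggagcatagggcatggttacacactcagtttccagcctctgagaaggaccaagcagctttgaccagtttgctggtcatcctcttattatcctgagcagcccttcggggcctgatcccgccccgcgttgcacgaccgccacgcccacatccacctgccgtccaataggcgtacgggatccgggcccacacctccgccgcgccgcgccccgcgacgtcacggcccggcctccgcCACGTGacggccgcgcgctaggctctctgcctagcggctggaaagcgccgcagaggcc
Slc25a36: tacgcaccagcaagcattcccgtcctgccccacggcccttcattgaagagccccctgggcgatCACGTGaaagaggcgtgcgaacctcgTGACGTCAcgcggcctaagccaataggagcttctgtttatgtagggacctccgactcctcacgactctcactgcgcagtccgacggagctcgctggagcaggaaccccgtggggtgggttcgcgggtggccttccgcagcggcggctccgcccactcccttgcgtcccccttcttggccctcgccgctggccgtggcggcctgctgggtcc
The cAMP response element stood 150 bases before the start in Slc25a25 and 161 bases before it in Slc25a36, and the E-box stood 8 bases before the start in Slc25a33 and 187 bases before it in Slc25a36. Both motifs read alike on both strands, and the places found do not overlap. For Slc25a25 the start with a match is the one shown, and its other annotated starts hold neither motif. Slc25a23, which fell, is not shown and holds neither motif at its annotated starts. Of the 32851 promoters in the table, 1.79% hold the cAMP response element and 7.15% hold the E-box. Counted by gene, as for the carriers, these are 3.36% and 11.7% of the 10376 tested genes with an entry. Promoter entries matched 36 of the 47 carriers, and 31 of the 40 tested ones. Among these 31, the cAMP response element was found in 1 of 3 genes that rose (Slc25a25), in 1 of 14 that fell (Slc25a36) and in 0 of 14 that were not called. The E-box was found in 1 of 3 genes that rose, 3 of 14 that fell and 2 of 14 that were not called. Another 5 motifs were searched on both strands and are not marked: the CCAAT box (CCAAT, in 37.4% of promoters and 42.2% of tested genes), the NRF1 element (by name, 4.6% and 11.1%), the AP-1 site (TGANTCA, 7.81% and 6.61%), the ERR half-site (AAGGTCA, 4.72% and 4.09%) and the TATA box (TATAAA, 13.6% and 9.51%). CCAAT was found in 2 of 3 carriers that rose, 9 of 14 that fell and 7 of 14 that were not called. The other 4 motifs were found in 0 of 3 carriers that rose. Of 14 that fell, AP-1 was found in 2, NRF1 and TATA in 1 each and the ERR half-site in 0, and of 14 not called, the ERR half-site was found in 1 and the others in 0. Such a match is a description of the letters. The start used in these kidneys was not measured, since reads come from the 3′ ends of transcripts.

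A minimum of 10 exon reads over the 12 libraries was reached by 40 carriers. The other 7 were Slc25a2, Slc25a18, Slc25a31, Slc25a41, Slc25a43, Slc25a47 and Slc25a54, with 0 to 7 reads summed over the 6 RIAKI libraries and 0 to 4 over the 6 sham libraries. All exon reads of the 40 tested carriers mapped to a single place. Among them, 4 rose, 17 fell and 19 did not pass the threshold of 0.05 (edgeR's quasi-likelihood test, p-values adjusted over 13536 genes by Benjamini-Hochberg). That is 52.5% called, against 36.3% of all genes tested. Carriers that fell made up 42.5%, against 18.8% of all genes, and those that rose 10.0%, against 17.4% of all genes. The median log2 fold change was −0.42 over the 40 carriers and −0.01 over all genes.

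Abundant genes are called more easily, so the counts were repeated for genes with at least 100 reads. Of 29 such carriers, 15 fell and 4 rose, or 65.5% called, against 48.5% of 7739 genes. The share that fell was 51.7%, against 24.2% of these genes, and the share that rose was 13.8%, against 24.3%. RIAKI and sham libraries did not overlap for 13 of the 40 carriers (32.5%), 10 of them lower and 3 higher in RIAKI. The same held for 19.3% of all genes tested. It held for 28.6% of genes with at least 100 reads, a set to which only 29 of these 40 carriers belong. Slc25a21, with 97 reads and no overlap, lies outside that set. Over all carriers, the summed level was 2249 to 3082 CPM in RIAKI (median 2639) and 3893 to 4844 CPM in sham controls (median 4610), with no overlap. Scaled by total counts alone, without the TMM factors, 13 in place of 17 carriers fell, and 4 rose as before. Where at least 10 counts in at least 6 libraries were asked for, 27 carriers were tested, of which 15 fell and 2 rose.

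**Figure D1:**
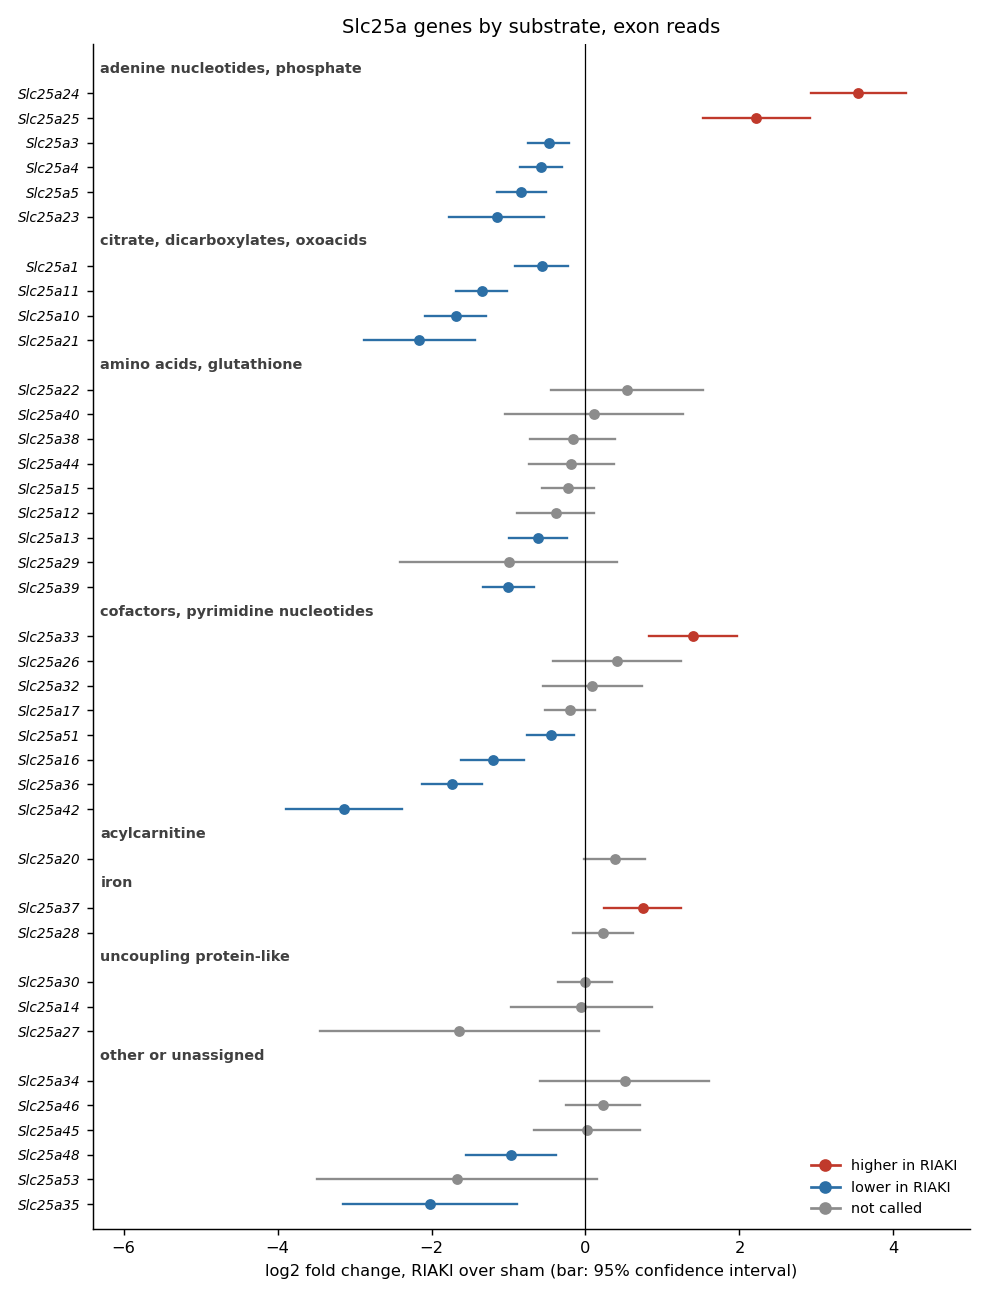
Log2 fold change of exon reads, RIAKI over sham, for 39 of the 40 tested Slc25a genes grouped by substrate, with 95% confidence intervals (6 libraries per group). The 4 genes that rose are drawn in red and 16 that fell in blue, and all 4 carriers of citrate, dicarboxylates and oxoacids lie left of 0.

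Carriers of adenine nucleotides and phosphate feed ATP synthesis, and all 6 tested members changed: 4 fell and 2 rose. Slc25a5, the ADP/ATP carrier of most dividing and epithelial cells (ANT2, chromosome X, 36795651 to 36798807), was the most abundant carrier in both groups. It was measured at 1388 to 2247 CPM in RIAKI (median 1775) and 2704 to 3555 CPM in sham controls (median 3312). No RIAKI library reached the lowest sham library. On the log2 scale Slc25a5 fell by 0.83 (SE 0.16, adjusted p = 7.7e-05, edgeR's quasi-likelihood test), and its share of all carrier reads was 61.7% to 72.9% in RIAKI and 68.3% to 73.4% in sham controls. Since reads come from the 3′ end of each transcript, CPM are not divided by gene length here, and levels of different genes are set side by side on this scale only.

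The ADP/ATP carrier of heart and muscle, Slc25a4 (ANT1), was found at 121 to 177 CPM in RIAKI (median 151) and 203 to 250 CPM in sham controls (median 220). Its groups did not overlap, and it fell by 0.57 (SE 0.13, adjusted p = 0.00086). Slc25a3, which brings phosphate into the matrix, was measured at 128 to 169 CPM in RIAKI (median 144) and 187 to 217 CPM in sham controls (median 206). It fell by 0.48 (SE 0.13, adjusted p = 0.0039), again with no overlap, although with total counts as the sole scaling the adjusted p was 0.058.

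**Figure D2:**
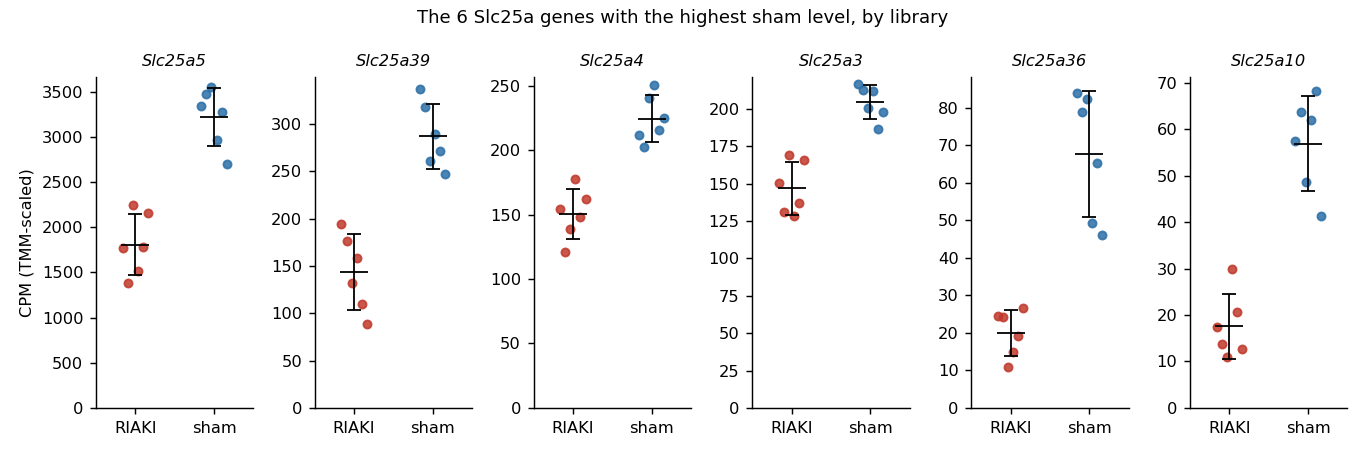
CPM of the 6 Slc25a genes with the highest mean in sham controls, each dot a library, RIAKI left and sham right, with mean and SD (bars, n = 6 each). In each of the 6 panels, every RIAKI library lies below every sham library, as for Slc25a5 with at most 2247 CPM in RIAKI and at least 2704 CPM in sham controls.

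ATP-Mg/phosphate carriers shift adenine nucleotides in and out of the matrix in a calcium-dependent manner, and their 3 tested forms did not move together. Slc25a24 (SCaMC-1, chromosome 3, 109123149 to 109168457) was measured at 13.0 to 33.7 CPM in RIAKI (median 29.6) and 0.528 to 3.94 CPM in sham controls (median 2.28). The lowest RIAKI library was thus above the highest sham library, and the gene rose 11.6-fold (log2 3.54, SE 0.30, adjusted p = 7.8e-11). Among the 40 tested carriers this was the largest increase, although it rests on 24 reads over all sham libraries, against 273 in RIAKI.

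Slc25a25 (SCaMC-2, chromosome 2, 32414487 to 32451445) was found at 6.61 to 9.37 CPM in RIAKI (median 7.68) and 0.61 to 3.53 CPM in sham controls (median 1.51). Here too all RIAKI libraries were above all sham libraries, and the gene rose 4.66-fold (log2 2.22, SE 0.34, adjusted p = 4.8e-06). Slc25a25 had only 18 reads over all sham libraries and 85 in RIAKI. Its exons share 379 bases with Naif1 on the other strand, which had 68 reads in all, and whether counting used the strand is not given in the sources used here. In contrast, Slc25a23 (SCaMC-3, chromosome 17, 57043711 to 57059863) was measured at 1.55 to 7.53 CPM in RIAKI (median 4.62) and 7.22 to 11.8 CPM in sham controls (median 10.5). Both groups overlapped slightly, and Slc25a23 fell by 1.16 (SE 0.30, adjusted p = 0.0027).

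**Figure D3:**
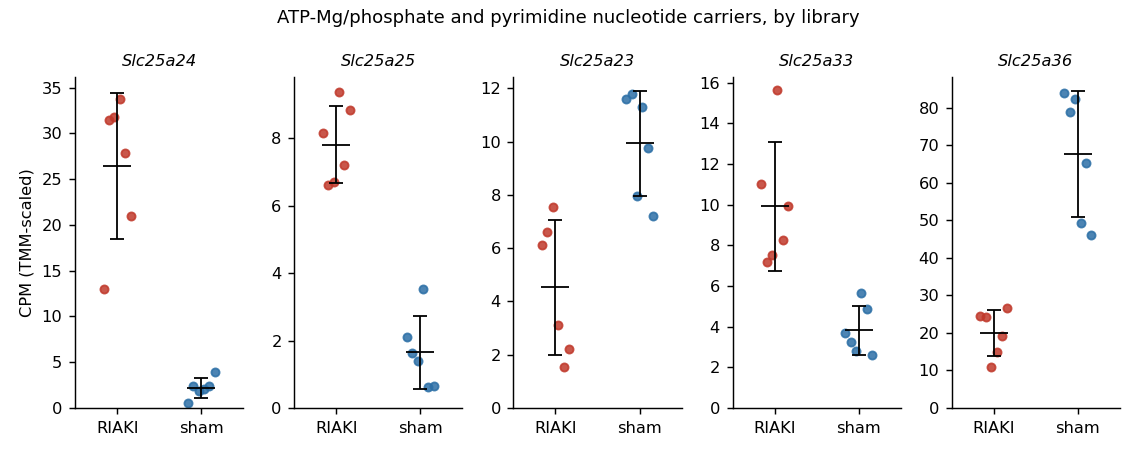
CPM of the ATP-Mg/phosphate carriers Slc25a24, Slc25a25 and Slc25a23 and the pyrimidine nucleotide carriers Slc25a33 and Slc25a36, each dot a library, RIAKI left and sham right, with mean and SD (bars, n = 6 each). Slc25a24, Slc25a25 and Slc25a33 are higher in every RIAKI library than in any sham library, Slc25a36 is lower in every one, and Slc25a23 overlaps.

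Carriers of citrate, dicarboxylates and oxoacids link the citric acid cycle to the cytosol. All 4 fell, with a median log2 fold change of −1.52. The dicarboxylate carrier Slc25a10 exchanges malate or succinate for phosphate and was found at 10.9 to 30.0 CPM in RIAKI (median 15.6) and 41.4 to 68.4 CPM in sham controls (median 59.8). RIAKI and sham libraries did not overlap, and Slc25a10 was 3.21-fold lower (log2 −1.68, SE 0.19, adjusted p = 3.3e-08). Slc25a11, which swaps oxoglutarate for malate in the malate-aspartate shuttle, was measured at 13.8 to 23.2 CPM in RIAKI (median 19.1) and 40.05 to 57.8 CPM in sham controls (median 49.5). No library overlapped, and the log2 fold change was −1.35 (SE 0.16, adjusted p = 8.2e-08). Of its exons, 189 bases are shared with Rnf167 on the other strand, which had 422 reads.

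Slc25a21 carries oxoadipate, an intermediate of lysine breakdown, and was detected at 0.62 to 3.86 CPM in RIAKI (median 1.16) and 6.56 to 8.46 CPM in sham controls (median 7.09). All 6 RIAKI libraries were below the sham libraries, RIAKI replicate 6 being the highest of them. Slc25a21 was 4.46-fold lower (log2 −2.16, SE 0.36, adjusted p = 1.4e-05). It had only 17 reads over all RIAKI libraries, 7 of them in replicate 6, and 80 in sham controls. Of its exons, 189 bases are shared with Pax9 on the other strand, which had 7 exon reads. The citrate carrier Slc25a1, which exports citrate for fatty acid synthesis, fell less, with 16.5 to 30.0 CPM in RIAKI and 26.9 to 37.4 CPM in sham controls. Its groups overlapped (log2 −0.57, SE 0.17, adjusted p = 0.0084), and the call was lost with total counts as the sole scaling (adjusted p = 0.085).

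Among the 9 tested carriers of amino acids and glutathione, 2 fell, 7 were not called and the median log2 fold change was −0.23. Slc25a39, which brings glutathione into the matrix, was the second most abundant carrier in sham controls. It was measured at 88.8 to 194 CPM in RIAKI (median 145) and 248 to 337 CPM in sham controls (median 280). Both groups were apart, and Slc25a39 fell by 1.00 (SE 0.16, adjusted p = 1.1e-05). Its relative Slc25a40 was barely detected, at 0 to 2.21 CPM in RIAKI and 0.528 to 3.28 CPM in sham controls, and was not called (log2 0.11, 95% interval −1.05 to 1.27).

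Aspartate-glutamate carriers complete the malate-aspartate shuttle. Slc25a13 (citrin) fell by 0.62 (SE 0.19, adjusted p = 0.0098), with 9.92 to 20.9 CPM in RIAKI (median 17.1) and 19.0 to 28.9 CPM in sham controls (median 25.7). These groups overlapped, and the call was lost with total counts as the sole scaling (adjusted p = 0.059). Slc25a12 (aralar) was found at 4.37 to 9.37 CPM in RIAKI (median 5.60) and 7.05 to 9.19 CPM in sham controls (median 8.71), and was not called (log2 −0.38, 95% interval −0.88 to 0.11). Nor were the ornithine carrier Slc25a15 (log2 −0.23, 95% interval −0.57 to 0.10), the glycine carrier Slc25a38, Slc25a44, which takes up branched-chain amino acids, the glutamate carrier Slc25a22 and Slc25a29, a carrier of basic amino acids.

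Carriers of cofactors and pyrimidine nucleotides supply the matrix with building blocks of coenzymes, DNA and RNA. Of 9 tested, 5 fell, 1 rose and 3 were not called. Slc25a42, which imports coenzyme A, showed the largest decrease among the 40 tested carriers. In RIAKI it was found at 0.552 to 1.63 CPM (median 1.07), and in sham controls at 6.35 to 17.1 CPM (median 8.18). The groups were clearly apart, and the gene was 8.80-fold lower (log2 −3.14, SE 0.37, adjusted p = 5.2e-08). It had only 12 reads over all RIAKI libraries and 117 in sham controls.

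Slc25a16, also linked to coenzyme A, was measured at 12.2 to 19.6 CPM in RIAKI (median 16.1) and 20.1 to 49.1 CPM in sham controls (median 40.4). It fell by 1.21 (SE 0.20, adjusted p = 1.4e-05) with no overlap, the lowest sham library being close to the highest RIAKI library. The NAD carrier Slc25a51 fell by 0.45 (SE 0.15, adjusted p = 0.017), a call that was lost with total counts as the sole scaling (adjusted p = 0.20). Slc25a17, which resides in peroxisomes, Slc25a26, which imports S-adenosylmethionine, and the folate carrier Slc25a32 were not called (log2 −0.20, 0.41 and 0.09, in this order).

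The pyrimidine nucleotide carriers moved in opposite directions. Slc25a36 (PNC2, chromosome 9, 97074961 to 97111157) was measured at 10.9 to 26.5 CPM in RIAKI (median 21.6) and 46.0 to 83.9 CPM in sham controls (median 72.1). All RIAKI libraries lay below all sham libraries, and the gene was 3.32-fold lower (log2 −1.73, SE 0.19, adjusted p = 1.7e-08). Slc25a33 (PNC1, chromosome 4, 149744036 to 149774277), known as an insulin- and mTOR-responsive gene in cultured cells, was found at 7.16 to 15.6 CPM in RIAKI (median 9.09) and 2.63 to 5.64 CPM in sham controls (median 3.47). Every RIAKI library was above the sham libraries, and Slc25a33 rose 2.64-fold (log2 1.40, SE 0.28, adjusted p = 0.00018). Of these genes, Slc25a36 holds the cAMP response element and the E-box shown above, and Slc25a33 an E-box.

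Mitoferrins bring iron into the matrix for the synthesis of haem and iron-sulphur clusters. Slc25a37 (mitoferrin 1), the form best known from red cell precursors, was measured at 7.34 to 12.7 CPM in RIAKI (median 10.3) and 3.05 to 8.12 CPM in sham controls (median 6.12). RIAKI libraries tended to lie higher but overlapped with sham libraries, and Slc25a37 rose by 0.74 (SE 0.25, adjusted p = 0.018). Without sham replicate 5 this call was lost (log2 0.62, adjusted p = 0.052). Erythroid markers summed to 985 to 4445 CPM in RIAKI and 2503 to 5142 CPM in sham controls, with 0 of 7 higher and 5 lower, a count that ranged over 1 to 6 under other settings. Slc4a1, counted among those lower, is also on the list of distal nephron and collecting duct markers. What part blood left in the kidney has in the result on Slc25a37 was not tested. Slc25a28 (mitoferrin 2), the widely expressed form, was found at 11.8 to 20.6 CPM in RIAKI (median 17.4) and 11 to 16.9 CPM in sham controls (median 14.3). It was not called (log2 0.23, 95% interval −0.17 to 0.62).

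The carnitine-acylcarnitine carrier Slc25a20, which takes fatty acids into the matrix for oxidation, was not called, with 13.4 to 23.7 CPM in RIAKI and 9.16 to 16.7 CPM in sham controls (log2 0.38, 95% interval −0.02 to 0.78). None of the 3 uncoupling protein-like carriers was called, edgeR's unadjusted p was above 0.05 for each of them, and 0 were called under the alternatives in which they were tested. Slc25a30, a carrier first described in the kidney, was the most abundant of these, at 30.4 to 50.7 CPM in RIAKI (median 33) and 28.6 to 48 CPM in sham controls (median 37.4). Its log2 fold change was −0.01, with a 95% interval of −0.36 to 0.35. Among 6 carriers of other or unassigned substrates, Slc25a48, a choline carrier, and Slc25a35 fell, and Slc25a34, Slc25a45, Slc25a46 and Slc25a53 were not called. Slc25a35 had only 8 reads in RIAKI and 36 in sham controls (log2 −2.02, SE 0.55, adjusted p = 0.0046) and shares 1151 exon bases with Rangrf on the other strand (178 reads).

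To compare related carriers without any scaling between libraries, the log2 ratio of their reads was taken within each library for 7 pairs (2-sided exact permutation test over every assignment of libraries to groups, Benjamini-Hochberg adjustment over the 7 pairs). The smallest p such a test can give is 0.00216. Slc25a24 over Slc25a23 was 2.61 ± 1.04 in RIAKI and −2.16 ± 1.00 in sham controls (SD, n = 6 each), a difference of 4.77 (exact p = 0.00216, adjusted p = 0.00505). Among reads of these genes, 85.0% came from Slc25a24 in RIAKI and 17.8% in sham controls, so that the more abundant of the pair was the other one in each group.

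Slc25a25 over Slc25a23 was 0.94 ± 0.98 in RIAKI and −2.56 ± 0.64 in sham controls, differing by 3.5 (exact p = 0.00216, adjusted p = 0.00505). For Slc25a33 over Slc25a36 the ratio was −0.98 ± 0.65 in RIAKI and −4.06 ± 0.63 in sham controls, a difference of 3.08 with the same exact p. Slc25a33 contributed 32.3% of the reads of both pyrimidine nucleotide carriers in RIAKI and 5.02% in sham controls. The 3 pairs had no overlap between RIAKI and sham libraries, and the first 2 share Slc25a23 and hence are not independent. All 3 restate the opposite calls of their genes given above, so that their p-values are no further support for those calls. Slc25a33 and Slc25a36 each had no overlap, which fixed the separation of their ratio in advance.

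Other pairs did not pass the threshold after adjustment. Mitoferrin 1 over mitoferrin 2 was 0.55 higher in RIAKI (exact p = 0.0411, adjusted p = 0.0720), but without RIAKI replicate 3 it was 0.61 higher (adjusted p = 0.0429) and without sham replicate 2 it was 0.67 higher (adjusted p = 0.0114). For Slc25a5 over Slc25a4, the difference was −0.27 (exact p = 0.119, adjusted p = 0.139), and −0.35 without RIAKI replicate 3 (adjusted p = 0.0429). Slc25a39 over Slc25a40 differed by −1.06 (exact p = 0.108, adjusted p = 0.139), and by −1.40 without RIAKI replicate 3 (adjusted p = 0.0429). Slc25a13 over Slc25a12 differed by −0.18 (exact p = 0.639).

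**Figure D4:**
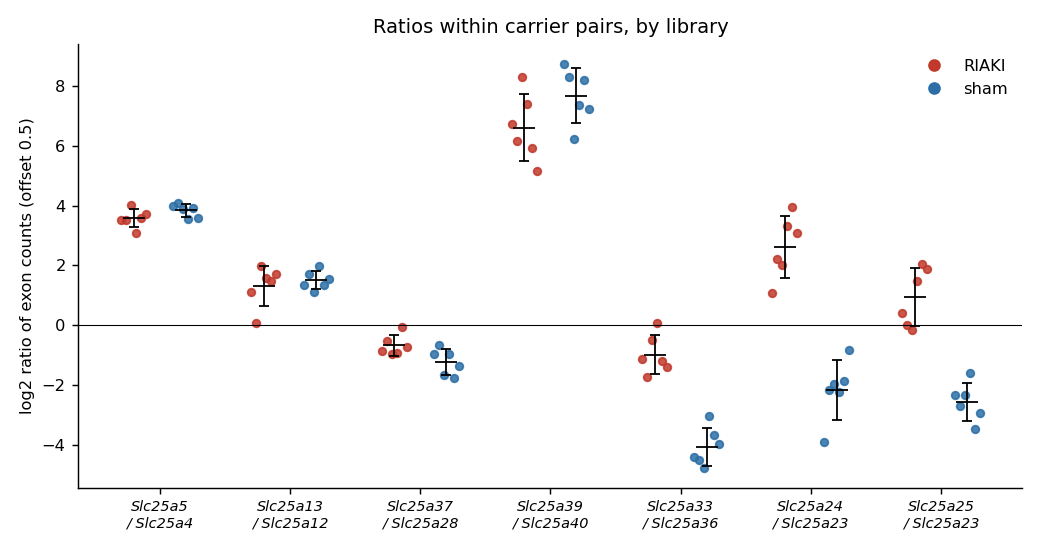
Log2 ratio of exon counts within each library (offset 0.5) for 7 pairs of related carriers, each dot a library, RIAKI left of sham in each pair, with mean and SD (bars, n = 6 each). RIAKI and sham libraries separate for Slc25a33/Slc25a36, Slc25a24/Slc25a23 and Slc25a25/Slc25a23 and overlap for the other 4 pairs.

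Reads in introns, which mature mRNA lacks, were counted in a column of their own from the same libraries. Of 26 carriers with at least 10 intron reads, 1 rose and 5 fell, or 23.1% called. Of all 10182 genes tested on introns, 9.66% were called, 4.36% higher and 5.3% lower in RIAKI. Groups did not overlap for Slc25a21 and Slc25a48, against 4.45% of all genes. Slc25a21 (log2 −1.40, adjusted p = 1.7e-05), Slc25a36 (log2 −1.31, adjusted p = 0.018), Slc25a42 (log2 −1.83, adjusted p = 0.032) and Slc25a51 (log2 −1.42, adjusted p = 0.019) fell in introns as they did in exons. Slc25a12 fell in introns (log2 −1.07, adjusted p = 0.035) but was not called in exons. Without RIAKI replicate 2, or without RIAKI replicate 3, the 6 calls went down to 3, so that single libraries decide part of this count, while Slc25a21 and Slc25a48 passed the threshold without any one library.

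Slc25a48 (chromosome 13, 56438355 to 56474239) was the one carrier with opposite calls in exons and introns, and was singled out after its values were seen. Exon reads per library were 3 to 13 in RIAKI (median 7.5) and 11 to 18 in sham controls (median 15.5). These groups overlapped, and exon reads fell (log2 −0.97, SE 0.29, adjusted p = 0.0080). Intron reads, in contrast, were 11 to 37 per library in RIAKI (median 12) and 0 to 3 in sham controls (median 1.5). No sham library came near the RIAKI libraries in introns, and the increase in intron reads was 3.44 on the log2 scale (SE 0.43, adjusted p = 8.6e-12).

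Within each library, the log2 ratio of Slc25a48 intron to exon reads was 1.03 ± 0.80 in RIAKI and −3.36 ± 1.18 in sham controls (SD, n = 6 each). The difference of 4.39 restates the opposite calls by which the gene was singled out, so that no p-value is given for it. No other annotated gene overlaps Slc25a48. Where in its introns these reads lie was not analysed here.

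**Figure D5:**
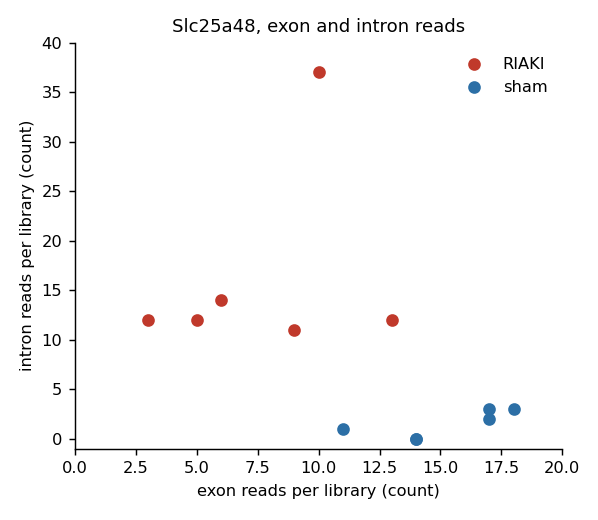
Exon reads (x axis, count per library) and intron reads (y axis, count per library) of Slc25a48, each dot a library. All RIAKI libraries hold 11 to 37 intron reads, while sham libraries hold 0 to 3 and, with 11 to 18, mostly more exon reads (2 sham libraries share the point at 14 exon and 0 intron reads).

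Genes around the carriers were described from lists of known function, in the same fit, with the share of all genes called given above (36.3%). Mitochondrial carriers that bear other names were tested for 3 of 5 genes, of which 1 fell (Mtch1, log2 −0.58). Of 19 other transporters of mitochondrial membranes, 10 fell and 2 rose (median log2 −0.60). Mpc2, a subunit of the pyruvate carrier, averaged 208 ± 44 CPM in RIAKI and 583 ± 86.7 CPM in sham controls (SD, n = 6 each), with a log2 fold change of −1.49. Sfxn5 (log2 −1.49), Sfxn2 (log2 −1.98) and Vdac1, a pore of the outer membrane (log2 −1.13), fell as well. The 2 that rose, named after their values were seen, were Mcu, the calcium uniporter (log2 0.93), and the outer membrane pore Vdac3 (log2 0.47).

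The machinery that imports carriers and inserts them into the inner membrane went the other way in 6 of 13 genes. Of the others, 7 were not called and 0 were lower, and the median log2 fold change was 0.39. Of all genes tested 17.4% were called higher, and of genes with at least 100 reads 24.3%. Among those not called were Timm22 (log2 −0.0009), Timm29 (log2 −0.003) and Timm9 (log2 −0.14). Over the alternatives run, 5 to 6 were higher and 0 lower. Timm10, a chaperone of the intermembrane space, averaged 39.4 ± 7.13 CPM in RIAKI and 19.5 ± 2.45 CPM in sham controls (SD, n = 6 each; log2 1.00, adjusted p = 1.2e-05). Tomm20, a receptor on the outer membrane, averaged 360 ± 85.0 CPM in RIAKI and 189 ± 34.2 CPM in sham controls (log2 0.93, adjusted p = 3.2e-05). Timm8a1 (log2 0.79) and Timm10b (log2 0.75) rose as well.

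Enzymes that use what the carriers bring fell more often than they rose. Of all genes tested 18.8% were called lower, and of genes with at least 100 reads 24.2%. In the citric acid cycle and citrate use, 6 of 10 genes fell and 0 rose (median log2 −0.89). Among those with the smallest p in edgeR's quasi-likelihood test were Idh2 (log2 −1.61), Suclg1 (log2 −0.91) and Suclg2 (log2 −0.90). Ogdh fell as well (log2 −1.17). Of 4 malate-aspartate shuttle enzymes, Mdh1 (log2 −1.43) and Mdh2 (log2 −0.44) fell, Mdh2 not with total counts as the sole scaling (adjusted p = 0.32). Only 1 of the 4 was called lower without any one of RIAKI replicates 3, 4, 5 and 6 or of sham replicates 1, 2 and 4, and 3 were without RIAKI replicate 1. In ornithine and urea metabolism, 4 of 5 tested genes fell, among them Ass1 (log2 −2.29), Asl (log2 −1.31) and Odc1 (log2 −0.68). Arg2, the mitochondrial arginase that makes ornithine, rose, with 21.4 ± 2.90 CPM in RIAKI and 1.96 ± 1.35 CPM in sham controls (SD, n = 6 each; log2 3.38, adjusted p = 2.4e-10), while the ornithine carrier Slc25a15 was not called.

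Around the acylcarnitine carrier, 3 of 5 genes of the carnitine shuttle fell, namely Slc22a5, which takes up carnitine (log2 −1.27), Cpt1b (log2 −1.97) and Crat (log2 −0.83, adjusted p = 0.054 with total counts as the sole scaling). On reads mapped to a single place, only 4 of the 5 genes were tested and 2 of them fell. Among 8 genes that use iron in mitochondria, 3 fell and 2 rose. The second that rose, Glrx5 (log2 0.33, adjusted p = 0.049), was named after its values were seen, and only 1 gene rose without any one of RIAKI replicates 2, 3, 4 and 6 or of sham replicates 1, 2, 3, 5 and 6. Alas1, the first enzyme of haem synthesis, averaged 53.0 ± 22.5 CPM in RIAKI and 19.3 ± 7.0 CPM in sham controls (SD, n = 6 each; log2 1.43, adjusted p = 1.8e-05), whereas the iron-sulphur cluster genes Iscu (log2 −0.91), Nfs1 (log2 −0.65) and Isca1 (log2 −0.64, adjusted p = 0.056 with total counts as the sole scaling) fell. In mitochondrial one-carbon metabolism, which uses folate, 5 of 8 genes fell and 2 rose. Mthfd2 was found at 11.3 ± 3.72 CPM in RIAKI and 1.92 ± 0.979 CPM in sham controls (SD, n = 6 each; log2 2.49, adjusted p = 2.7e-07), while Amt (log2 −1.75), Shmt2 (log2 −1.47) and Gcsh (log2 −0.81) fell.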

How the data were processed

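The authors prepared libraries of total kidney RNA with the QIAseq UPX 3′ Transcriptome Kit, demultiplexed reads with bcl2fastq (named in the submitters' processing notes) and, in CLC Genomics Workbench, trimmed reads, removed duplicates by UMI, mapped to GRCm38 and assigned Ensembl genes. What the authors deposited are raw counts for each gene, separately for exons and introns, after UMI deduplication and without normalization. Other deposited columns were not used here, save reads mapped to a single place.

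Groups were taken from the sample labels. Genes with at least 10 counts over 12 libraries were tested in R 4.3.3 with edgeR 4.0.16 (quasi-likelihood test, TMM on full totals, Benjamini-Hochberg adjustment, threshold 0.05), after the script was tested on simulated data. CPM were scaled by TMM. Low counts limit precision, since 21 carriers were under 10 CPM in sham controls. Alternatives were edgeR's exact test, DESeq2 1.42.0, limma 3.58.1 with voom, other scalings and filters, uniquely mapped reads, a replicate block and leaving out each library. Values per library are given for the 6 carriers with the highest sham mean, for called carriers with an absolute log2 fold change of at least 1 and at least 60 counts, and for paired carriers. Up to 4 called genes per neighbouring list are named by smallest p. The carriers, pairs and gene lists were chosen with earlier results of these data known. The results of 1 carrier and 1 neighbouring gene are not reported here, beyond the counts that include them.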

Additional observations from a re-analysis of the deposited data

Results flagged for a closer look

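Carriers were checked for a single library far from the other 5 of its group by Dixon's criterion. Of 80 groups checked, 3 stood out, where chance gives about 1 in 20. Slc25a21 was at 3.86 CPM in RIAKI replicate 6, against 0.62 to 1.55 CPM in the other RIAKI libraries, and below all sham libraries. Slc25a40 was at 3.28 CPM in sham replicate 3, against 0.528 to 1.41 CPM in the other sham libraries. Slc25a53 was at 0.815 CPM in RIAKI replicate 1, while the other RIAKI libraries were at 0.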

How the results depend on the processing

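Of 21 called carriers, 16 kept direction and call under every alternative in which they were tested, 5 lost the call in 1 of them and 0 changed direction, and 0 of the others gained one. Of these 16, Slc25a25, Slc25a33, Slc25a35 and Slc25a42 were not tested with at least 10 counts in at least 6 libraries, where 17 carriers were called, 2 of them higher. With total counts as the sole scaling, 17 carriers were called; those that lost the call were Slc25a1 (log2 −0.50), Slc25a3 (−0.43), Slc25a13 (−0.56) and Slc25a51 (−0.37). Leaving out each library gave 20 to 21 called carriers. For introns, the 6 called carriers became 2 where at least 10 counts in at least 6 libraries were asked for, 2 without RIAKI replicates 1 and 3 together (the ends of the mitochondrial rRNA share, chosen after seeing the data), and 3 to 6 on leaving out each library. Across single left-out libraries, Slc25a5/Slc25a4 ranged over −0.35 to −0.17, Slc25a37/Slc25a28 over 0.43 to 0.67 and Slc25a39/Slc25a40 over −1.40 to −0.77, and with an offset of 2 Slc25a39/Slc25a40 was −1.13 (adjusted p = 0.0341 by the exact permutation test). Replicate numbers did not pair the libraries, since same-numbered samples correlated at −0.17 to 0.32 and most did not correlate best with their own number. With the replicate block 21 carriers and 4961 genes were called, against 4908 genes without it. The pairs Slc25a24/Slc25a23 (4.77), Slc25a25/Slc25a23 (3.5) and Slc25a33/Slc25a36 (3.08) had an adjusted p of 0.0547 under the block, where 6 pairs of samples allow no exact p below 0.03125. Carriers with few reads, of which 7 were not tested, limit what can be detected.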
